A study of Rattus norvegicus with 20 samples.

Results

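Aldehyde dehydrogenases and aldehyde oxidases are the enzymes that turn aldehydes into acids, and 10 of their genes were followed here across 3 kinds of preneoplastic rat liver lesion and control liver. The 10 genes were Aldh1a1, Aldh1a7, Aldh1l1, Aldh2, Aldh3a2, Aldh6a1, Aldh7a1, Aldh9a1, Aox1 and Aox3. Probes were matched by gene symbol in the platform's probe annotation, and the brightest probe over all 20 arrays stood for a gene. In this way 6 of the 10 genes had a probe, out of 13337 genes with a named probe in all. Aldh1a7, Aldh1l1, Aldh2 and Aldh7a1 had none under these symbols and were not analysed here. Of the 6, 5 passed the filter on low signals (signal over 200 on at least 5 arrays) and were tested, and Aldh6a1 did not.

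The study followed lesions of the Resistant-Hepatocyte (R-H) model in male Fischer rats to ask when cytokeratin-19 (CK-19), a biliary and progenitor cell marker, comes up. Rats had 1 dose of the liver carcinogen diethylnitrosamine (DENA) and, from 2 weeks later, 2 weeks of a diet with 2-acetylaminofluorene (2-AAF), which stops normal hepatocytes from dividing, together with a partial hepatectomy (PH). Early preneoplastic foci (EPFs) were microdissected 4 weeks from the DENA dose, which was 7 days after PH, and 10 to 15 foci were pooled for each of the 5 EPF arrays. Nodules were taken 10 weeks from the DENA dose, 7 weeks after PH, with a single nodule per array. Of the nodules 5 had at least 5% of their area stained for CK-19 by immunohistochemistry (CK-19-positive, here positive nodules), and the other 5 had no CK-19-positive cell (CK-19-negative, here negative nodules). All lesions were positive for the placental glutathione S-transferase GSTP and carried DENA, 2-AAF and PH. The 5 control arrays were labelled as control, and the methods describe random areas of liver taken by microdissection. The methods call the control rats age-matched and describe their tissue in more than one way, as normal liver and as liver of rats under the R-H protocol, so that their exposure to DENA, 2-AAF and PH is not settled here. RNA came from 4 to 5 animals and no array is tied to a rat, so p-values measure the spread between arrays, and nodules of 1 rat may be among them. The foci were taken near the end of 2-AAF feeding and the nodules weeks after it, which cannot be told apart from the kind of lesion.

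Aldehydes arise in hepatocytes from ethanol, lipid peroxidation, retinol, amino acids, amines and drugs. Aldehyde dehydrogenases oxidise them with NAD or NADP as the electron acceptor, and each member of the family has its preferred substrates and place in the cell. Aldehyde oxidases are cytosolic enzymes with a molybdenum cofactor that use oxygen instead and also oxidise many nitrogen heterocycles, among them drugs. Aldh1a1 makes retinoic acid from retinal and is widely used as a marker of stem-like cells in several tumours.

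The start sites of the 3 genes that differed 2-fold or more from control liver are shown first, because 2 of them rose in the nodules and the third, which lies beside one of the 2, fell. The sequences are the 250 bases before the listed start in RefSeq (GRCr8), 5′ to 3′ on the gene's own strand, the plus strand in each case. Capitals mark the matches to the motifs searched. Aldh1a1 stands on chromosome 1, chr1:227537370-227537619, and its listed start lies inside the outer annotated span of the gene. Aox1 stands at chr9:67073641-67073890 and Aox3 at chr9:67158750-67158999.
Aldh1a1: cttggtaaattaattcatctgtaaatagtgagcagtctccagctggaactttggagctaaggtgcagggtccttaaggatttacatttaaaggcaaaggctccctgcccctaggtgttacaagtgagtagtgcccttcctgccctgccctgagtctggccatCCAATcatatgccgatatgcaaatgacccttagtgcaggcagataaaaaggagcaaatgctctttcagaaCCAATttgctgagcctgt
Aox1: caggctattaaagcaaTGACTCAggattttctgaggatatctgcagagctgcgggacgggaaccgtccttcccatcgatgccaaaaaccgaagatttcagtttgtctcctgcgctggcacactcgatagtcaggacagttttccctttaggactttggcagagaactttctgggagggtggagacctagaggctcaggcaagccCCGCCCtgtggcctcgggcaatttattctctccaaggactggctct
Aox3: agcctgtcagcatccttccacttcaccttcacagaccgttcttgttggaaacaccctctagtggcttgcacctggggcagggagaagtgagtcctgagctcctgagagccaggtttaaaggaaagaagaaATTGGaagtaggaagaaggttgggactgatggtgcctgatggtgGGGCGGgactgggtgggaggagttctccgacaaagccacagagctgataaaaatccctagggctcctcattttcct
The motifs were searched on both strands, and of the 33469 rat promoter windows of this length CCAAT stood in 34%, the GC box GGGCGG in 30.5%, the xenobiotic response element core GCGTG in 25.9%, TATAAA in 12.9%, the antioxidant response element core TGACNNNGC in 10.1% and the AP-1 site TGANTCA in 6.34%. Aldh1a1 had CCAAT on its own strand at -88 to -84 and at -18 to -14 from the start. Aox1 had the AP-1 letters TGACTCA at -234 to -228 and a GC box on the other strand at -46 to -41. Aox3 had CCAAT on the other strand at -120 to -116 and a GC box at -76 to -71. These letters overlap no other match in the 3 windows. GC content was 46.4% for Aldh1a1 with 1 CpG, 52.8% for Aox1 with 9 CpGs and 52.8% for Aox3 with 3 CpGs, against a median of 51.2% over all windows. A match is only a run of letters, and binding was not measured here.

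Signals are the quantile-normalized intensities that the authors deposited, on a linear scale with no log transformation. They ran between 95.5 and 44883, with a median of 157.05 to 157.47 per array, and 7370 to 7383 of 22523 probes exceeded 200 on an array. A signal at or under 200 on every array of a group was read as too dim to give a level. A gene was called where limma's fit over all 20 arrays gave a Benjamini-Hochberg adjusted p under 0.05 over 6102 genes and a difference of at least 2-fold. Arrays correlated best with another array at 0.981 to 0.994. Gstp1, the marker used to find the lesions, stood 6.87, 6.82 and 5.91 above control liver on the log2 scale in EPFs, positive and negative nodules. Krt19, the gene of CK-19, was 4.06 above control in positive nodules and 1.34 in EPFs (limma, adjusted p = 1.31e-08 and 0.00513). In negative nodules its difference of 0.93 was not called (limma, adjusted p = 0.108). These nodules differed widely in Krt19, with signals of 197, 1181, 578, 200 and 516, against 206 to 248 in control liver.

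Against control liver, the genes parted into those that rose, 1 that fell and those with no 2-fold difference. In EPFs 2 of the 5 tested genes were called, Aldh1a1 as higher and Aox3 as lower, where 12.4% of all tested genes were called. In positive nodules 3 of 5 were called, Aldh1a1 and Aox1 as higher and Aox3 as lower, beside 9.85% of all genes. The same 3 genes were called in the same directions in negative nodules, where only 1.95% of all genes were. The median log2 fold change of the 5 genes was -0.14 in EPFs, -0.13 in positive and -0.07 in negative nodules, against -0.02, -0.01 and 0.00 over all tested genes. The 5 genes were chosen with earlier results of these data known, and these counts describe them only. Lesion and control arrays did not overlap in 41.5% of all tested genes for EPFs, 31.0% for positive and 10.5% for negative nodules.

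**Figure D1:**
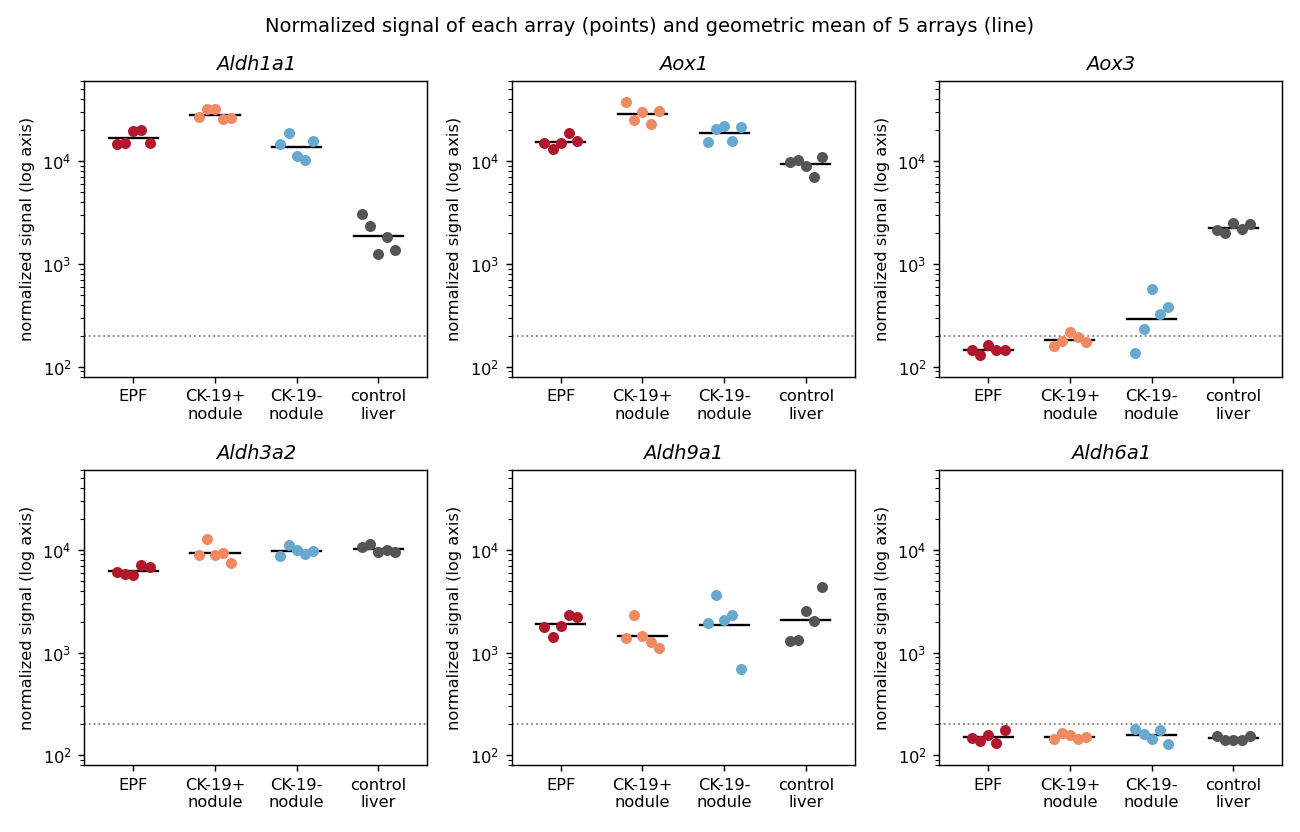
Normalized signal (log axis) of the 6 genes with a probe on each array, in EPFs, nodules positive for CK-19 (CK-19+), nodules without it (CK-19-) and control liver, with the geometric mean of 5 arrays as a line and the level of 200 dotted. Aldh1a1 and Aox1 stood higher in all 15 lesion arrays than in any control array, Aox3 lower, and Aldh6a1 stayed under 200 throughout.

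Aldh1a1, the cytosolic retinal dehydrogenase, rose in every kind of lesion. Its signal was 14622, 15150, 19708, 20161 and 14840 in EPFs, 26573, 31747, 32036, 25542 and 26428 in positive nodules, 14800, 18818, 11153, 10328 and 15771 in negative nodules, and 3081, 2324, 1239, 1827 and 1371 in control liver. The lowest lesion array, a negative nodule, stood above the highest control array, and the 5 positive nodules stood above every other array. Relative to control liver, Aldh1a1 was 8.99-fold higher in EPFs (95% interval 6.74 to 11.99, adjusted p = 1.65e-11), 15.2-fold higher in positive nodules (11.4 to 20.3, adjusted p = 1.03e-12) and 7.44-fold higher in negative nodules (5.58 to 9.92, adjusted p = 7.68e-10, limma). The exact two-sided permutation test of 5 against 5 arrays gave p = 0.00794 in each comparison, the smallest it can give. Single lesion arrays ranged between 7.86 and 10.8 times the control geometric mean in EPFs, between 13.7 and 17.2 times in positive nodules and between 5.55 and 10.1 times in negative nodules. How far the probe also reads Aldh1a7, a close relative, was not tested. The control arrays spread most for this gene, with a coefficient of variation of 38.3%, against 16.5% in EPFs, 11.1% in positive and 24.5% in negative nodules. EPFs were hybridised alone on 1 chip, so that the chip and EPFs cannot be told apart in any comparison with them. Within chip 1, where all positive nodules and 2 controls lay, the log2 difference was 3.40, with an adjusted p of 3.16e-07 (limma). For negative nodules it was 2.56 within chip 1, from 1 nodule, and 3.43 within chip 2, from 1 control. Such values of a single array assume that it varies like the others and are given without a p.

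The lesions also differed in Aldh1a1. It was 2.05-fold higher in positive than in negative nodules (limma, adjusted p = 4.17e-04), with no overlap of arrays, as in 18.9% of all tested genes. It was the 1 gene of the 5 called in this comparison, beside 4.79% of all genes. The 2-fold limit was close: the log2 difference was 1.03 with all arrays, 0.93 with chip as a random block (adjusted p = 0.00247), 0.53 with chip as a fixed block and no EPFs (adjusted p = 0.201) and 0.85 within chip 1, from 1 negative nodule, and between 0.93 and 0.99 without negative nodule 3 or 4 or positive nodule 2 or 3, so that the call was lost each time. EPFs stood below positive nodules by 0.76 on the log2 scale (adjusted p = 0.0035), again with no overlap but under 2-fold. Between these 2 groups 37.15% of all tested genes had no overlap. EPFs were 1.21 times negative nodules, and the interval of this ratio, 0.906 to 1.61, left out neither sign (adjusted p = 0.262). The order was thus positive nodules, EPFs, negative nodules and control liver, of which EPFs and negative nodules did not differ beyond their spread.

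Aox1, the aldehyde oxidase found in most mammals, stood higher than control in every lesion array, by less than Aldh1a1 did. Its signal was 15106, 12982, 14939, 18583 and 15644 in EPFs, 37123, 24960, 30187, 22854 and 30673 in positive nodules, 15452, 20279, 21879, 15704 and 21344 in negative nodules, and 9878, 10163, 8995, 7022 and 10933 in control liver. No lesion array fell within the control range, and each positive nodule stood above all EPFs and all negative nodules. Of all tested genes, 37.15% had no overlap between EPFs and positive nodules, and 18.9% had none between the nodule groups. Aox1 was 3.09-fold higher in positive nodules than in control liver (95% interval 2.52 to 3.80, adjusted p = 4.33e-09) and 2.01-fold higher in negative nodules (1.64 to 2.48, adjusted p = 3.13e-05, limma). In EPFs the difference was 1.65-fold (1.34 to 2.03, adjusted p = 1.86e-04), past the p threshold but not called. The call in negative nodules sat on the 2-fold limit and ended without control 3 or 4, or without negative nodule 2, 3 or 5, where the log2 difference was between 0.91 and 1.00, beside 1.01 with all arrays. It was 1.09 within chip 1, from 1 negative nodule, and 1.01 within chip 2, from 1 control. Positive nodules exceeded negative nodules by 0.62 and EPFs fell below positive nodules by 0.91 on the log2 scale (adjusted p = 0.00221 and 2.35e-05), both under 2-fold. Between the nodule groups the difference was 0.46 with chip as a fixed block and no EPFs (adjusted p = 0.196), and 0.43 within chip 1, from 1 negative nodule. Between EPFs and negative nodules the ratio was 0.820 (0.667 to 1.01, adjusted p = 0.0994, exact permutation p = 0.0556).

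Aox3, a second aldehyde oxidase that rodents express in liver, fell in every kind of lesion. Its signal was 145, 131, 161, 145 and 145 in EPFs, 159, 180, 216, 193 and 172 in positive nodules, 136, 232, 569, 322 and 380 in negative nodules, and 2159, 1977, 2488, 2202 and 2461 in control liver. The highest lesion array, negative nodule 3, stood well under the lowest control array. All EPFs lay at or under 200, as did 4 of 5 positive nodules and 1 of 5 negative nodules, a range where a signal gives no level. With EPF arrays set to 200, Aox3 was at least 11.25-fold lower in EPFs than in control liver (limma on the signals as given, adjusted p = 4.70e-12). In positive nodules the 1 array over 200 was also the brightest and stood at 0.0959 of the control geometric mean, and limma on the signals as given called the group as lower (adjusted p = 2.46e-11). Negative nodules, with 4 of 5 arrays over 200, were at 0.131 of control (95% interval 0.0943 to 0.181, adjusted p = 4.09e-09, limma). The exact permutation p was 0.00794 in all 3 comparisons. For negative nodules the log2 difference from control was -2.44 within chip 1, from 1 nodule, and -3.17 within chip 2, from 1 control.

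Negative nodules differed among themselves in Aox3, with signals between 232 and 569 on the 4 arrays over 200. Their coefficient of variation was 49.8%, against 9.56% in control liver. It includes nodule 1, which at 136 was too dim to give a level and overlapped the EPFs. The spread within EPFs and positive nodules could not be read from signals at or under 200. Aox3 was the 1 gene of the 5 called between EPFs and negative nodules, beside 8.92% of all genes, with a fitted log2 difference of -1.02 (limma, adjusted p = 7.13e-04, exact permutation p = 0.0397). As EPFs were too dim to give a level, the difference is at least 1.47-fold. The call ended without negative nodule 3, 4 or 5 or EPF 2, where the fitted difference was between -0.99 and -0.78, and also where 50 was added before log2 or signals under 300 were raised to 300 (-0.84 and -0.27). Arrays of positive and negative nodules overlapped (exact permutation p = 0.0952), and with 4 of 5 positive nodules at or under 200 no size is given for their difference. Of the EPFs and positive nodules 9 of 10 arrays lay at or under 200, and they were not ordered.

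Aox1 and Aox3 are neighbours on rat chromosome 9, in a cluster with Aox4 and Aox2, and they went opposite ways on the same arrays. Of the tested genes before Aox1 within the window looked at in the RefSeq gene order, Spats2l and Tyw5, neither was called in any lesion, and their log2 differences from control lay between -0.49 and 0.06. Of the tested genes after Aox2 (Bzw1, Clk1, Ppil3, Nif3l1 and Orc2), the only call was Ppil3 in EPFs with a log2 difference of 1.35. Aox2, an oxidase of the nasal lining in mice, stayed at or under 200 on all 20 arrays, and Aox4 was not analysed here.

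**Figure D2:**
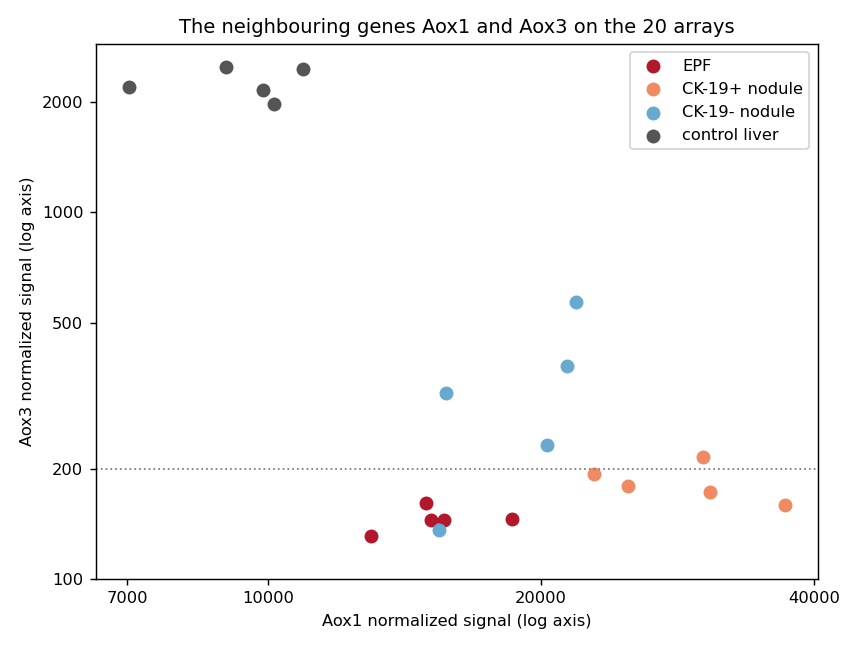
Normalized signal of Aox3 (vertical, log axis) against that of Aox1 (horizontal, log axis), 1 point per array, coloured by group, with the level of 200 dotted. Control arrays stand at the upper left, EPFs and positive nodules along the bottom, and negative nodules between 136 and 569 on the Aox3 axis.

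Aldh3a2, the membrane-bound fatty aldehyde dehydrogenase that clears long-chain aldehydes, was lower in EPFs and close to control in nodules. Its signal was 6075, 5827, 5625, 7036 and 6776 in EPFs, 8832, 12592, 8970, 9344 and 7494 in positive nodules, 8646, 11058, 10056, 9163 and 9676 in negative nodules, and 10625, 11419, 9515, 9985 and 9498 in control liver. Every EPF array lay under every array of the other 3 groups. Such separation was common: of all tested genes, 41.5% had no overlap between EPFs and control liver. The share was 37.15% against positive and 39.0% against negative nodules. EPFs were at 0.613 of control liver (95% interval 0.521 to 0.722, adjusted p = 1.66e-05), at 0.671 of positive nodules (0.570 to 0.790, adjusted p = 2.52e-04) and at 0.645 of negative nodules (0.548 to 0.759, adjusted p = 7.52e-05, limma). None of these reached 2-fold, so none was called. Aldh3a2 was at 0.914 of control in positive nodules (0.776 to 1.08) and at 0.951 in negative nodules (0.808 to 1.12), and those intervals hold no 2-fold difference (adjusted p = 0.367 and 0.727). A second Aldh3a2 probe read between 138 and 179 on all arrays, under the level used, and gives no second reading.

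Aldh9a1, which oxidises aminoaldehydes from polyamines and from carnitine synthesis, was not called in any of the 6 comparisons. Its signal was 1791, 1424, 1811, 2303 and 2222 in EPFs, 1381, 2334, 1442, 1259 and 1116 in positive nodules, 1943, 3601, 2077, 2299 and 691 in negative nodules, and 1298, 1313, 2544, 2032 and 4303 in control liver. Arrays of all groups overlapped, and negative nodules and control liver spread the most, with coefficients of variation of 48.9% and 53.8%. The ratio to control was 0.910 in EPFs (95% interval 0.559 to 1.48), 0.703 in positive nodules (0.432 to 1.15) and 0.906 in negative nodules (0.556 to 1.47), with adjusted p between 0.231 and 0.824 (limma). In these intervals a 2-fold fall was not left out for positive nodules, and no direction held over all settings in any comparison but that of EPFs with positive nodules. RefSeq lists a pseudogene of Aldh9a1, and its part in the signal was not tested.

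Aldh6a1, the methylmalonate semialdehyde dehydrogenase of valine breakdown in mitochondria, lay between 128 and 179 on all 20 arrays. Its mean was 151 ± 18.0 in EPFs, 153 ± 9.01 in positive nodules, 158 ± 21.6 in negative nodules and 146 ± 6.80 in control liver (SD, n = 5 each). The probe gave no level in any group, so that the gene was not compared.

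**Figure D3:**
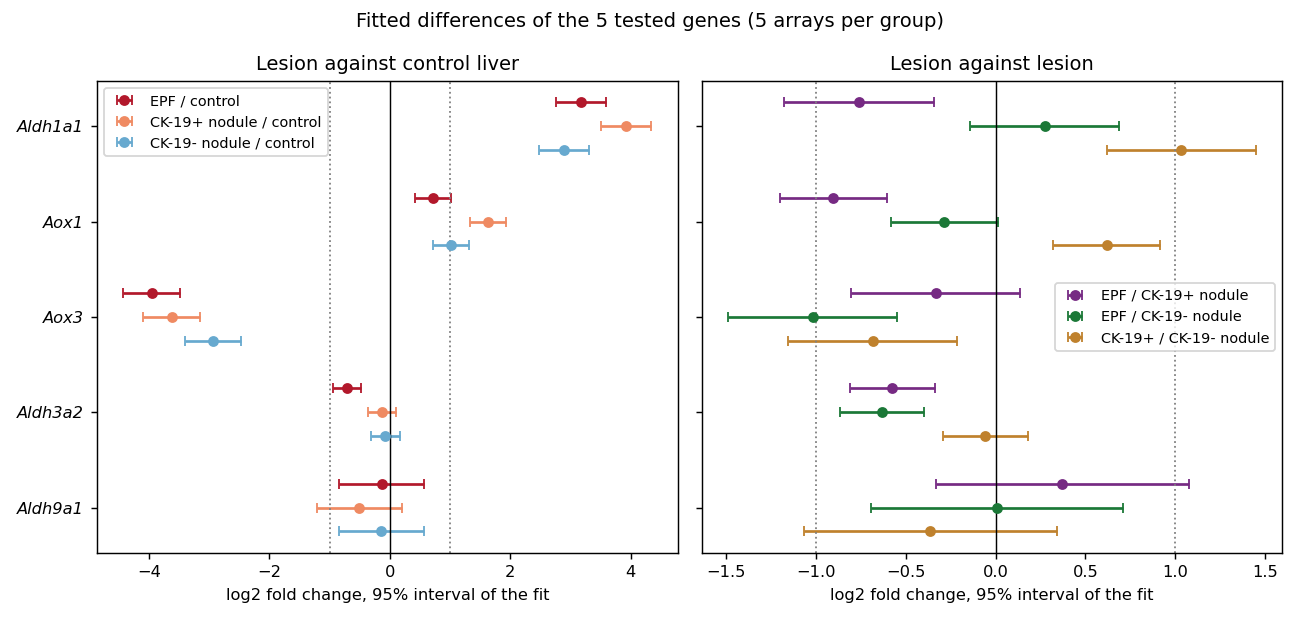
Log2 fold change (horizontal, with its 95% interval from limma) of the 5 tested genes, in each lesion against control liver (left) and between lesions (right), with 0 as a solid line and 2-fold as dotted lines. On the left Aldh1a1 lies beyond 2-fold on the high side and Aox3 on the low side in all 3 lesions, where the Aox3 points rest in part on signals at or under 200. On the right the Aldh1a1 point between the nodules passes 2-fold, and the fitted Aox3 point between EPFs and negative nodules stands at -1.02, while the bound for it is 1.47-fold.

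Between EPFs and positive nodules 0 of the 5 genes were called by limma, beside 6.16% of all genes. Without adjustment, 3 had a limma p under 0.05 (Aldh1a1, Aldh3a2 and Aox1). The methods' t-test also called 0, with 4 at an unadjusted p under 0.05. By that test 3483 of all 6102 genes had such a p, so that it was common here. The median log2 difference of the 5 genes was -0.58 here, against -0.01 over all genes. It was -0.29 between EPFs and negative nodules and -0.06 between positive and negative nodules, against -0.01 and 0.00 over all genes. The 3 comparisons between lesions share arrays with one another and with those against control.

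Of 10 other genes of the family with a named probe, 6 passed the filter, and 1 of these, Aldh3a1, was called against control. Aldh3a1, an enzyme of the cornea and of drug-treated liver and the neighbour of Aldh3a2 on chromosome 10, was at or under 200 in EPFs (104 to 141) and in control liver (114 to 143). It read 847, 1446, 333, 291 and 286 in positive nodules and 109, 149, 144, 129 and 202 in negative nodules. All positive nodules stood above every other array, and nodules 1 and 2 were the highest. With control arrays set to 200, positive nodules were at least 2.54-fold higher than control liver. The gene passed the filter only through this group, where it had to differ, so the value is a description and is given without a p. The call ended with signals under 300 raised to 300. Against negative nodules, of which 1 of 5 exceeded 200, no size is given. The summed signal of 10 biliary and oval cell markers was highest in positive nodules. It was 4703 to 8143 in EPFs, 10020 to 16507 in positive nodules, 5430 to 9094 in negative nodules and 3566 to 8493 in control liver. The sum holds Krt19, the gene of the marker by which nodules were sorted, so the rank between nodule groups was in part built in. Krt19 alone read 2738 to 7686 in positive and 197 to 1181 in negative nodules. By calls the order differed: of 8 tested markers, 5 rose and 1 fell in EPFs, where Aldh3a1 stayed at or under 200. In positive nodules 3 rose and 1 fell. Of all tested genes, 6.26% were called as higher and 6.15% as lower in EPFs, and 4.95% and 4.9% in positive nodules. Prom1, 1 of the 8 markers, exceeded 200 on 5 EPFs and on 2, 1 and 0 arrays of positive nodules, negative nodules and control liver. It thus passed the filter only through EPFs. Krt7 and Cldn4 stayed at or under 200 on all arrays of both nodule groups and of control liver, and the part of these cells in the Aldh3a1 and Aldh1a1 signals was not tested.

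None of the other 5 tested genes was called against control. Aldh1b1, a mitochondrial relative of Aldh2, was lower in positive nodules by 0.72 on the log2 scale (limma, adjusted p = 8.58e-04), with a value of -0.49 in negative nodules (adjusted p = 0.0415), and its value of -0.36 in EPFs had an adjusted p of 0.0603. For negative nodules the threshold was missed with chip as a random block (-0.49, adjusted p = 0.0566) and as a fixed block (-0.42, adjusted p = 0.304). Aldh1l2, the mitochondrial formyltetrahydrofolate dehydrogenase, had -0.37 in EPFs and -0.42 in positive nodules (adjusted p = 0.0200 and 0.0104), and 0.04 in negative nodules (adjusted p = 0.870). With chip as a fixed block the value in positive nodules was -0.14 (adjusted p = 0.454), and within chip 1 it was also -0.14 (adjusted p = 0.484). Aldh1l2 read 177 to 215 in EPFs, 165 to 217 in positive nodules, 211 to 292 in negative nodules and 187 to 332 in control liver, close to the level used. Aldh5a1, which breaks down the semialdehyde made from GABA, read 855 to 1038 in EPFs, under all positive nodules (1213 to 2014, log2 difference -0.55, adjusted p = 0.00343). These 2 groups did not overlap in 37.15% of all tested genes. Against control liver its log2 differences were -0.24, 0.32 and 0.12 in EPFs, positive and negative nodules (adjusted p = 0.175, 0.0797 and 0.644). Aldh16a1, a non-canonical member, and Aldh18a1, which makes the proline precursor, had log2 differences from control between -0.05 and 0.22 in the 3 lesions (adjusted p between 0.106 and 0.935). Aldh1a2, Aldh1a3, Aldh3b1 and Aox2 stayed too dim to test.

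**Figure D4:**
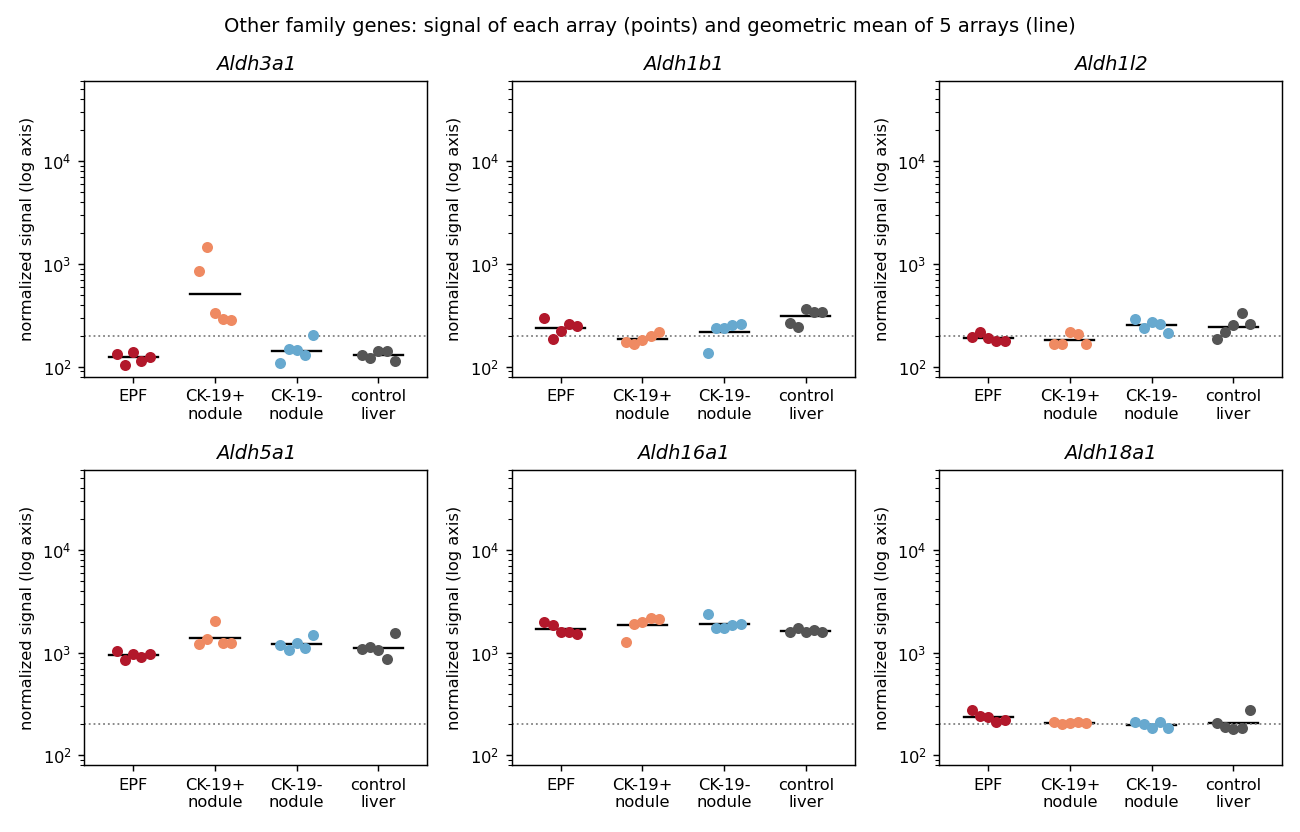
Normalized signal (log axis) of 6 further family genes on each array, in EPFs, nodules positive for CK-19 (CK-19+), nodules without it (CK-19-) and control liver, with the geometric mean of 5 arrays as a line and the level of 200 dotted. Aldh3a1 leaves the background in positive nodules, between 286 and 1446, while Aldh16a1 reads between 1255 and 2392 over all 4 groups.

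The pathways that make aldehydes or use their products were counted from lists written with earlier results of these data known. Over all genes 6.26% were called as higher and 6.15% as lower in EPFs, 4.95% and 4.9% in positive nodules, and 1.29% and 0.656% in negative nodules. For the retinoid path, 7 alcohol and retinol dehydrogenases were tested, of which 1 was called as lower in EPFs and 2 in positive nodules, with median log2 fold changes of -0.34 and -0.53. Rdh7, a retinol dehydrogenase that feeds retinal to Aldh1a1, averaged 867 ± 41.6 in EPFs and 774 ± 296 in positive nodules, and 2556 ± 148 in control liver (SD, n = 5 each, log2 fold changes -1.56 and -1.81, adjusted p = 8.29e-08 and 1.31e-08). Rdh16 was called in positive nodules with -1.08 (adjusted p = 1.99e-04). Of 11 genes of retinoid storage, transport and response, 2 fell in positive nodules, the plasma retinol carrier Rbp4 (-1.53) and the retinoid receptor Rxrg (-1.14), with adjusted p = 1.01e-07 and 4.96e-07. The list's median was -0.37 in EPFs, -0.23 in positive and -0.09 in negative nodules.

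Aldehyde oxidases need the molybdenum cofactor, and of 6 tested genes of its synthesis and of other molybdenum enzymes 2 fell in EPFs. These were Suox, the sulfite oxidase, with -1.30, and Gphn, gephyrin, which inserts the metal, with -1.22 on the log2 scale (limma, adjusted p = 2.25e-06 and 3.31e-09). Neither reached 2-fold in nodules, where their differences were -0.94 and -0.85 in positive and -0.05 and -0.07 in negative nodules. The median of the list was -0.35 in EPFs, -0.49 in positive and -0.07 in negative nodules.

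The lists of branched-chain amino acid, lysine and folate metabolism are wider than the aldehyde dehydrogenase steps, and few of their genes were called. Beside them, 6.26% of all genes were called as higher and 6.15% as lower in EPFs, and 4.95% and 4.9% in positive nodules. Of 14 genes of branched-chain amino acid breakdown 2 fell in EPFs, Ivd (isovaleryl-CoA dehydrogenase, -1.51) and Hsd17b10 (-1.25), and 1 rose in positive nodules, Hibch of the valine path (1.25, adjusted p = 4.09e-07), with medians of -0.54 and -0.24. Of 10 genes of the list of lysine breakdown, the path of Aldh7a1, Aadat (-1.65) and Bbox1 (-1.06) fell and Aass (1.54) rose in EPFs. In positive nodules Bbox1 (-1.15) and Dhtkd1 (-1.06) fell, and the list's medians were -0.54 in EPFs and -0.50 in positive nodules. Bbox1 is an enzyme of carnitine synthesis and not of the Aldh7a1 path. Of 17 genes of folate and one-carbon metabolism, the path of Aldh1l1, Gnmt and Dmgdh fell and Tyms rose in EPFs, and Gnmt fell in positive nodules, with medians of -0.22 and -0.17. Gnmt, the glycine methyltransferase of liver, averaged 4033 ± 210 in EPFs and 6665 ± 3150 in positive nodules, and 24220 ± 3375 in control liver (SD, n = 5 each, adjusted p = 2.11e-09 and 1.49e-07).

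Of the polyamine genes Odc1 rose in all lesions. Odc1, the ornithine decarboxylase that starts polyamine synthesis, averaged 1354 ± 216 in EPFs, 945 ± 152 in positive and 530 ± 106 in negative nodules, and 177 ± 99.2 in control liver (SD, n = 5 each), where 1 of 5 arrays exceeded 200. Srm, spermidine synthase, rose by 2.21 in EPFs and 1.09 in negative nodules, and Sms, spermine synthase, by 1.07 in positive nodules. Maob, the monoamine oxidase B, fell by 1.05 in EPFs and by 1.01 in positive nodules. In all, of the 10 tested genes of the list of monoamine and polyamine oxidation, 2 rose and 1 fell in EPFs and in positive nodules, and 2 rose in negative nodules, with medians of 0.37, 0.30 and 0.06. Those that rose make polyamines and do not oxidise them, and the one oxidase called, Maob, fell.

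Aldh3a2 clears aldehydes from fatty acid omega-oxidation. Of 11 tested genes of its list, which also holds enzymes of peroxisomal alpha-oxidation, 5 were called as lower in EPFs and 3 in positive nodules, with medians of -0.87 and -0.79, and of -0.76 and -0.64 where signals at or under 200 were raised to 200. In EPFs these were Cyp4f4 (-1.73), Cyp4f1 (-1.10), Hacl1 (-1.09), Cyp4a2 (-1.05) and Cyp4a8, which read at or under 200 on all EPFs, and in positive nodules Cyp4a2 (-3.27), Cyp4a3 (-2.46) and Phyh (-1.40). Hacl1 and Phyh belong to alpha-oxidation, and the Cyp4 genes to omega-hydroxylation. Cyp4a2, a fatty acid omega-hydroxylase, averaged 2230 ± 272 in EPFs and 520 ± 238 in positive nodules, and 4623 ± 611 in control liver (SD, n = 5 each). Cyp4a genes are alike in sequence, and how far their probes read one another was not tested.

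In negative nodules no gene of the retinoid, dehydrogenase, molybdenum, amino acid, folate or omega-oxidation lists, nor of the other family genes, was called by limma or by the methods' t-test. At an unadjusted limma p under 0.05 these lists had between 1 gene (molybdenum enzymes) and 6 genes (folate). By the methods' t-test, which is a different test, 1425 of all 6102 genes had an unadjusted p under 0.05 in negative nodules.

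**Figure D5:**
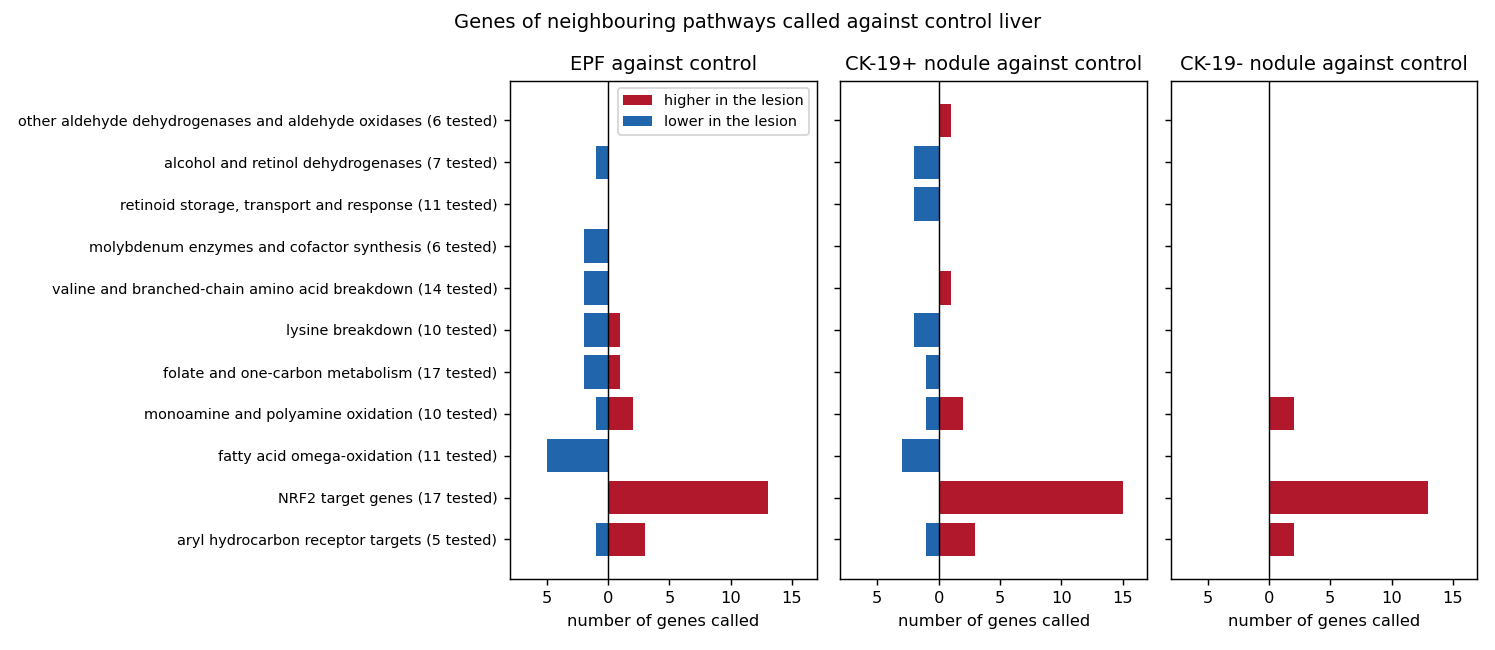
Number of genes called as higher (red, to the right) or lower (blue, to the left) in each of 11 lists around the aldehyde enzymes, in EPFs, positive and negative nodules against control liver, with the number tested in brackets. Targets of NRF2 have 13, 15 and 13 of 17 genes higher, and the list of omega-oxidation has 5 lower in EPFs and 3 in positive nodules.

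NRF2 is a transcription factor that turns on detoxifying enzymes, and many of its targets are marker genes of such lesions. Of 17 tested targets, 13 rose in EPFs, 15 in positive and 13 in negative nodules, with medians of 2.57, 3.26 and 2.06, and of 2.57, 3.09 and 1.89 with signals raised to 200. Akr7a3, an aldo-keto reductase that reduces aldehydes to alcohols, averaged 18770 ± 2332 in EPFs, 20380 ± 3308 in positive and 11720 ± 1783 in negative nodules, and 660 ± 170 in control liver (SD, n = 5 each). Nqo1, a quinone reductase, rose by 3.24, 4.15 and 2.44 in the same order. The list holds markers known from this model and is not independent evidence of its direction. Of 5 tested targets of the aryl hydrocarbon receptor, which 2-AAF can act on, 3 rose and 1 fell in EPFs and in positive nodules, and 2 rose in negative nodules. With signals at or under 200 raised to 200, since Cyp1a1 and Aldh3a1 read no higher on any control array, the medians were 0.60, 1.35 and 0.00. Those that moved went both ways: Nqo1 and Ugt1a6 were higher, while Cyp1a2 was lower by 1.48 in EPFs and by 3.17 in positive nodules. Cyp1a1 in EPFs and Aldh3a1 in positive nodules made up the other rises. Cyp1a1 passed the filter only through EPFs and Aldh3a1 only through positive nodules, where they had to differ. These 2 calls are therefore a description, and the median of 1.35 was the value of Aldh3a1 itself. Nqo1 and Ugt1a6 stand on both lists.

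By the correlation of log2 signal over all 20 arrays, the genes closest to Aldh1a1 were Abcc3 (Pearson's r = 0.974), an export pump for conjugates, Slc20a1 (0.969), a phosphate carrier, and Ephx1 (0.969), the microsomal epoxide hydrolase. In EPFs, positive and negative nodules their log2 differences from control were 3.51, 4.4 and 3.53 for Abcc3, 2.02, 2.74 and 1.71 for Slc20a1, and 2.21, 2.44 and 1.84 for Ephx1. Closest to Aox1 were Pcp4 (0.937), Slc17a3 (0.921) and Cidea (0.919), of which Pcp4, a small calmodulin-binding protein, had 1.44, 4.77 and 2.37. Closest to Aox3 were Abcb9 (0.975), a lysosomal peptide carrier, Gimd1 (0.965) and Obp3 (0.955), of which Obp3 had -6.91, -5.79 and -3.35. These values describe 20 arrays that share 4 groups and 1 normalization.

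On chromosome 1 the tested neighbours of Aldh1a1 were Anxa1, Zfand5, Gda and Abhd17b. Anxa1, an annexin that binds membranes, and Gda, the guanine deaminase, were called in positive nodules with log2 differences of 2.06 and 1.41, and their values were 0.76 and 0.16 in EPFs and 0.31 and 0.42 in negative nodules. Zfand5 and Abhd17b were not called in any lesion.

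Hepatocyte markers checked the tissue. Of 9 with a probe, 8 read over 200 on some array of every group and Apob on none, and the summed signal was 225800 to 249557 in EPFs, 242441 to 265630 in positive nodules, 237385 to 271613 in negative nodules and 178705 to 267002 in control liver, with 0 of 8 called by limma or the methods' t-test in negative nodules and 0 by limma in the other lesions (3, 6 and 1 with an unadjusted p under 0.05 in EPFs, positive and negative nodules). Red blood cell markers moved with the lesions as well. Their summed signal was 5967 to 7388 in EPFs, 6637 to 13237 in positive nodules, 8393 to 20650 in negative nodules and 25355 to 50551 in control liver, over 6 genes of which Hba-a2, Hbe1 and Alas2 read at or under 200 everywhere, with Hbb and Hba-a1 called as lower in all 3. Of 7 Kupffer cell and macrophage markers 2 fell in EPFs (Marco and Vsig4) and 1 in each nodule group (Marco), and the summed signal of the 7 was 6550 to 8981 in EPFs, 9354 to 17539 in positive nodules, 7053 to 9554 in negative nodules and 10105 to 17771 in control liver, with none at or under 200 throughout. Of 9 stellate cell and fibroblast markers 3 rose and 1 fell in EPFs, and 3 rose in positive nodules. With Lum, which read at or under 200 everywhere, their sum over 10 genes was 7033 to 14449 in EPFs, 11187 to 16233 in positive nodules, 5476 to 8693 in negative nodules and 6115 to 7715 in control liver. Of 8 tested biliary and oval cell markers 5 rose and 1 fell in EPFs, 3 rose and 1 fell in positive nodules, and 2 rose in negative nodules. Prom1, 1 of the 8, passed the filter only through EPFs. The 2 endothelial and 4 lymphocyte markers tested gave no call by limma, with 2 and 3 at an unadjusted p under 0.05 in EPFs, 0 and 1 in positive nodules, and 1 and 2 in negative nodules. Over all 6102 tested genes, limma called 12.4%, 9.85% and 1.95% in EPFs, positive and negative nodules against control. The marker counts at an unadjusted p under 0.05 came from limma. By the methods' t-test, a different test, 3628, 2986 and 1425 of all genes had an unadjusted p under 0.05 in the same order. In such samples fewer cells of a type and less RNA per cell cannot be told apart, and the part of blood or other cells in the Aldh1a1, Aox1 and Aox3 values was not tested.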

How the data were processed

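Gene expression was measured on 1-colour Illumina RatRef-12 arrays, 5 per group and 20 in all. The authors loaded the scans into BeadStudio (3.0.19.0 in the submitters' processing notes) and deposited quantile-normalized intensities, linear and without a stated background step. Probe annotation named 13793 of 22523 probes, of which 13772 had a symbol in the RefSeq gene table. A table before normalization holds 40 value columns that match no sample and was not used. The 10 genes, the gene lists and the tests were chosen with earlier results of these data known.

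Log2 signals of the brightest probe per gene were fitted with limma 3.58.1 in R 4.3.3 (lmFit and eBayes, group means, 20 arrays in one fit), and p-values were adjusted over 6102 genes, those exceeding a signal of 200 on 5 or more arrays. Single genes also had an exact two-sided permutation test. The script was tested on simulated data. Named genes were all 10, every other family gene with a probe, up to 4 called genes per list with the largest change, and the 3 closest genes by correlation for each of the 10 called against control. For Aox3 and Aldh3a1 a group at or under 200 on all arrays was set to 200 for a lower bound. The number of arrays limits the precision. Array numbers 1 to 5 are names in list order. Alternatives were filters, an added or subtracted background, chip as a block, within-chip fits, array weights, the methods' t-test, every probe by itself, only the groups compared, and each array left out. Figures were drawn with matplotlib 3.10.9 in Python 3.11.15.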

Additional observations from a re-analysis of the deposited data

Results flagged for a closer look

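Aldh9a1 read 2334 in positive nodule 2, while the other 4 positive nodules read between 1116 and 1442. The gap to the nearest array, as a share of the group's range, exceeded Dixon's critical value of 0.71 for 5 samples. The value lies within the range of control liver, and 24 groups of 5 arrays were examined in this way, of which chance flags about 1 in 20.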

How the results depend on the processing

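Of the values of the 5 tested genes under 35 alternatives (20 leave out 1 array), 946 kept direction and side of the threshold, 21 lost it, 3 passed it and 13 changed sign. Calls against control held for Aldh1a1 and Aox3 in EPFs and for Aldh1a1, Aox1 and Aox3 in positive nodules wherever the gene was tested. With the study's own filter (1690 probes) Aox3 was not tested, so EPFs had 1 call against control and 0 against negative nodules. EPFs against negative nodules also had 0 calls with 50 added before log2 and 0 with signals under 300 raised to 300. Positive against negative nodules had 0 calls with chip as a random block, 0 with chip as a fixed block without EPFs and 2 with a weight for each array, where Aox3 joined as lower, with 4 of 5 positive nodules at or under 200. Negative nodules against control had 1 call, Aldh1a1, within chip 2, which held 1 control. With the background level of 128.1 subtracted, EPFs against positive nodules had 1 call, Aox3, with 9 of 10 arrays at or under 200, and the calls over all genes were 1381, 1084 and 285 in EPFs, positive and negative nodules against control, and 926, 1165 and 565 in EPFs against positive, EPFs against negative and positive against negative nodules. Within chip 2, 28 genes were called in negative nodules against control. Leaving out 1 array gave between 0 and 1 calls in positive against negative nodules, and between 0 and 1 in EPFs against negative nodules. The cause of these changes was not tested. List medians with signals at or under 200 raised to 200 were chosen after seeing the data.

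The sign changes were all in values not called. Aldh9a1 read 0.7704 with chip as a fixed block and 1.0745 within chip 1 in positive against negative nodules, 0.3087 and 0.1566 under the same settings in positive nodules against control, and -0.0196 with array weights in EPFs against negative nodules. Aldh3a2 read 0.0259 within chip 2 in negative nodules against control. With 1 array left out, Aldh9a1 lay between -0.3788 and 0.2166 in negative nodules and between -0.3047 and 0.1275 in EPFs against control, and between -0.3531 and 0.2423 in EPFs against negative nodules, and Aldh3a2 between -0.1664 and 0.0207 in positive against negative nodules. In the other family genes, negative nodules against control gave 0.0414 with the fixed block, 0.1649 within chip 2 and 0.0145 with array weights for Aldh18a1, 0.0366 within chip 1 for Aldh1b1, -0.0292 with signals raised to 300 for Aldh1l2 and -0.0962 within chip 2 for Aldh3a1. Positive against negative nodules gave 0.0945 with array weights for Aldh16a1 and -0.1083 within chip 1 for Aldh5a1, and EPFs against positive nodules -0.0008 with the random block for Aldh1l2. With 1 array left out, Aldh16a1 lay between -0.1064 and 0.0902 in positive against negative nodules and between -0.0065 and 0.0943 in EPFs against control, Aldh18a1 between -0.0959 and 0.0574 in negative and between -0.0348 and 0.1186 in positive nodules against control, Aldh1b1 between -0.0428 and 0.2215 in EPFs against negative nodules, and Aldh1l2 between -0.0573 and 0.1502 in negative nodules against control. No paired analysis was possible because the array numbers only name the samples in list order. A signal close to background limits what Aox3, Aldh3a1, Aldh1b1, Aldh1l2 and Aldh18a1 can show.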

Other observations

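Hepatocytes around the central vein and around the portal vein differ in the enzymes they carry. For the counts below, 6.26% of all tested genes were called as higher and 6.15% as lower in EPFs. The shares were 4.95% and 4.9% in positive nodules, and 1.29% and 0.656% in negative nodules. Of 12 tested pericentral genes, 1 was called as higher and 6 as lower in EPFs and in positive nodules, and 1 as higher and 1 as lower in negative nodules, with median log2 fold changes of -1.02, -1.03 and -0.44. Oat, the ornithine aminotransferase, averaged 1923 ± 553 in EPFs and 1430 ± 631 in positive nodules, and 10700 ± 1826 in control liver (SD, n = 5 each). Rgn, regucalcin, was lower by 2.16 in EPFs and by 1.38 in positive nodules on the log2 scale. Rhbg, an ammonium transporter, went the other way and rose by 1.45, 2.23 and 1.71 in EPFs, positive and negative nodules. Of 14 tested periportal genes, 1 rose and 2 fell in EPFs, 4 fell in positive nodules, and 1 rose and 1 fell in negative nodules, with medians of 0.10, -0.61 and 0.00. Arg1, the arginase of the urea cycle, rose by 1.47 in EPFs, and Sds, serine dehydratase, rose by 1.80 in negative nodules. Pck1, which starts gluconeogenesis, fell by 1.58 in positive nodules.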
